A study of Mus musculus with 6 samples.

Results

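Whole-lung RNA from mice labelled FceRIa KO was compared with that of wild type (WT) mice in challenge-matched pairs of arrays, and 114 of 17534 genes compared stood at least 2-fold off WT the same way in both pairs. The array carries 19752 genes named through RefSeq. Of the 114 genes, 11 were higher and 103 were lower on the arrays labelled FceRIa KO. The gene that the label names, Fcer1a, was among the 11 higher genes. Whether its probe lies in the deleted part of the gene is not known here. The other genes near Fcer1a on chromosome 1, a set of inflammatory chemokines and acute phase genes, and many dim genes made up most of the remainder.

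The series holds 6 Agilent 1-colour arrays of total RNA from homogenised whole lung of C57BL/6 mice, 1 array for each of 6 groups. Genotypes were labelled wild type, FcRg KO and FceRIa KO (FceRla KO in the sample titles, FceRIa-/- in the genotype label), and each genotype had 1 array after PBS and 1 after mouse histamine-releasing factor (mHRF, described as mHRF-His for this genotype) given through the nose. The comparison asks how lungs labelled as lacking the alpha chain of the high-affinity IgE receptor differ from WT lungs after either challenge. The labels used here give no age, sex, dose or time after challenge, do not tell if 1 mouse or a pool was used per array, and do not name the deleted part of the gene. There are no replicates within a group, so the only repeat of the genotype contrast is the second challenge.

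A level is given throughout as log2 of the scanner's processed signal minus log2 of the 75th percentile of that array, so that 0 marks the 75th percentile. A ratio is the level on the array labelled FceRIa KO minus the level on the WT array of the same challenge, on the log2 scale. Where a probe was not well above background on 1 side of a pair, the array gives only a limit: its own signal there or, if larger, the dimmest signal still well above background on that array, was taken, and the ratio is written "at least N-fold". Genes with a mean level of at least -3 over the 4 arrays compared are called bright, and the others dim. The processed signal at the 75th percentile ranged from 1197 to 1622 over the 6 arrays, and 67.5% to 79.6% of spots were well above background. That share was 79.6% and 74.6% on the WT arrays and 68.9% and 67.5% on those labelled FceRIa KO, for PBS and mHRF in that order, and its part in the lower genes was not tested. Lung genes were among the brightest on every array, with levels from 8.05 to 8.34 for Sftpc, a surfactant protein gene of alveolar type 2 cells. Xist was well above background on all 6 arrays, while Ddx3y, Kdm5d and Uty of the Y chromosome were so on none. Eif2s3y, also of the Y chromosome, was well above background on all 6, at levels from -2.14 to -1.32.

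FceRI is the high-affinity receptor for IgE on mast cells and basophils. Its alpha chain, encoded by Fcer1a, binds IgE, its beta chain is encoded by Ms4a2, and its gamma chain, encoded by Fcer1g, signals and is shared with other Fc receptors. HRF is the secreted form of the protein encoded by Tpt1 and can act on mast cells and basophils through immunoglobulin. Fcer1a lies on chromosome 1 beside the HIN-200 (Ifi200) cluster, a family of DNA-binding interferon-inducible proteins that varies in gene content and level between inbred mouse strains.

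To show the genes that the comparison turns on at their start sites, the 250 bases before the annotated start are printed for 6 of them, from RefSeq with build GRCm38.p6. Fcer1a (chr1:173227230-173227479, minus strand), Ifi202b (chr1:173982845-173983094, minus strand) and Ifi208 (chr1:173673415-173673664, plus strand) stand for the neighbourhood of Fcer1a. Cxcl10 (chr5:92348890-92349139, minus strand), Gbp5 (chr3:142496684-142496933, plus strand) and Il6 (chr5:30012864-30013113, plus strand) stand for the lower inflammatory genes. Each is written 5′ to 3′ on the gene's strand. Capitals mark matches, on either strand, to 2 motifs: GAAA, any 2 bases and GAAA, the core of the interferon response element, and GGGA, any 2 bases and TTCC, a form of the kappa B site. The 2 motifs did not overlap in these windows.
Fcer1a: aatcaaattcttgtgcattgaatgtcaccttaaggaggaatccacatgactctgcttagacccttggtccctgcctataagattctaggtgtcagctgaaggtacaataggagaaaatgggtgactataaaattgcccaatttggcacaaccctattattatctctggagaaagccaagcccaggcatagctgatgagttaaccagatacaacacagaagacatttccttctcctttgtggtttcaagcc
Ifi202b: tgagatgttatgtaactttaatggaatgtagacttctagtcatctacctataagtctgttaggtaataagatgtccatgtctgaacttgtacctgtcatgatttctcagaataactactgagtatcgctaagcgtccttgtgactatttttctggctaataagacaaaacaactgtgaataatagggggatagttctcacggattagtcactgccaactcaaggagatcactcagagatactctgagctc
Ifi208: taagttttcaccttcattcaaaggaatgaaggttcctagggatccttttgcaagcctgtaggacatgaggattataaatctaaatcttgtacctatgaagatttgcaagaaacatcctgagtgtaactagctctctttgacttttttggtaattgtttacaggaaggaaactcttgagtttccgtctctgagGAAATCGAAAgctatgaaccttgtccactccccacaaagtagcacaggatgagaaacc
Cxcl10: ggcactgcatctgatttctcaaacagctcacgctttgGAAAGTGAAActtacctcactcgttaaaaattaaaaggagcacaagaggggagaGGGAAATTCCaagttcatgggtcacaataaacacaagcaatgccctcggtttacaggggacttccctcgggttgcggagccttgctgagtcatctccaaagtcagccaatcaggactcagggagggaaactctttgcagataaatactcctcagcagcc
Gbp5: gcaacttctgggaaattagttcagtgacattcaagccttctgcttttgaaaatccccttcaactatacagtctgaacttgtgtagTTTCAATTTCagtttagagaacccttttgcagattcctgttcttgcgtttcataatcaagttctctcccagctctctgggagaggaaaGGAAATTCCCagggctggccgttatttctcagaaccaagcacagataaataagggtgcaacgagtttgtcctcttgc
Il6: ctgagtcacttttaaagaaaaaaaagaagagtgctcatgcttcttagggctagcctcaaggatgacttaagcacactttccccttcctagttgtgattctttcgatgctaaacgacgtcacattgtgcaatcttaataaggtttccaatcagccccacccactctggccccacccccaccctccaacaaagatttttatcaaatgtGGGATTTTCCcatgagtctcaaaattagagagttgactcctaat

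Windows of the same length were available for 27025 promoters, of which 821 (3.04%) held the first motif and 316 (1.17%) the second. Of the 103 lower genes, 82 had a window, and 8 of these held the first motif and 6 the second. Of the 11 higher genes, 9 had a window, and neither motif was found in them. Among the 23 bright lower genes, 19 had a window. The first motif was found in 7 of the 19, namely Cxcl10, Gbp5, Ifi208, Ifi211, Saa3, Slc26a4 and Tgtp1, and the second in 4, namely Cxcl1, Cxcl10, Gbp5 and Il6. A match describes the letters in this window only.

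The receptor subunits come first, since the label names Fcer1a. Fcer1a stood at -4.48 (PBS) and -4.19 (mHRF) on the WT arrays, at -4.70 and -4.38 under the FcRg KO label, and at -0.90 and -1.16 under the FceRIa KO label. Both arrays labelled FceRIa KO were thus above the other 4, and the ratio to WT was 3.58 in the PBS pair and 3.03 in the mHRF pair, 12.0-fold and 8.19-fold higher. Whether the probe lies in the part of the gene that was deleted is not given in the sources used here, so the level shows only that RNA matching this probe was higher on these arrays. Fcer1g stood at 3.93 and 4.61 on the WT arrays, 4.14 and 4.32 under the FcRg KO label, and 4.07 and 4.45 under the FceRIa KO label, and its ratios were 0.14 and -0.16. Under the FcRg KO label its level was above WT after PBS and below WT after mHRF. Ms4a2 was not well above background on any of the 4 arrays compared.

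Of the 18 genes listed as Fc receptors and their signalling chains, 16 were compared, and Fcer1a was the only one at least 2-fold off WT the same way in both pairs. The median ratio of the 16 over both pairs was -0.14, against -0.03 over all genes compared; scaling on the array median puts them at 0.01 and 0.11. The Fc gamma receptors differed from WT mainly in the mHRF pair. Fcgr2b, the inhibitory IgG receptor, had ratios of -0.38 (PBS) and -1.60 (mHRF). Those of the activating receptors were 0.11 and -0.98 for Fcgr1, 0.09 and -0.79 for Fcgr3, and 0.25 and -0.61 for Fcgr4. Fcer2a, the low-affinity IgE receptor of B cells, was close to WT at -0.09 and -0.10. Fcmr, the IgM receptor, stood at 2.39 and 2.79 on WT arrays and at 2.75 and 3.14 on arrays labelled FceRIa KO, but was not well above background on 1 of the arrays labelled FcRg KO (levels -6.56 and -5.99). Tpt1, which encodes HRF itself, had ratios of 0.03 and 0.19. Of the 17 genes listed for mast cells and basophils, 15 were compared and none was off WT the same way in both pairs; their median ratio was -0.04, and 0.10 when scaled on the array median.

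In the PBS pair alone, 89 genes (0.508% of those compared) passed 2-fold upwards and 501 (2.86%) downwards. In the mHRF pair alone, 169 (0.964%) did so upwards and 386 (2.2%) downwards. Requiring both pairs left the 11 higher genes (0.0627%) and the 103 lower genes (0.587%), and these shares are what the rule gives. The WT array of each challenge enters only its own pair, so no array is shared between the pairs. All 11 higher genes were well above background on both sides of both pairs, and 9 of them had pair ratios within 1.5-fold of each other. Of the 103 lower genes, 44 were measured on both sides and 59 carried at least 1 bound, and 29 of the 44 had ratios within 1.5-fold of each other.

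**Figure D1:**
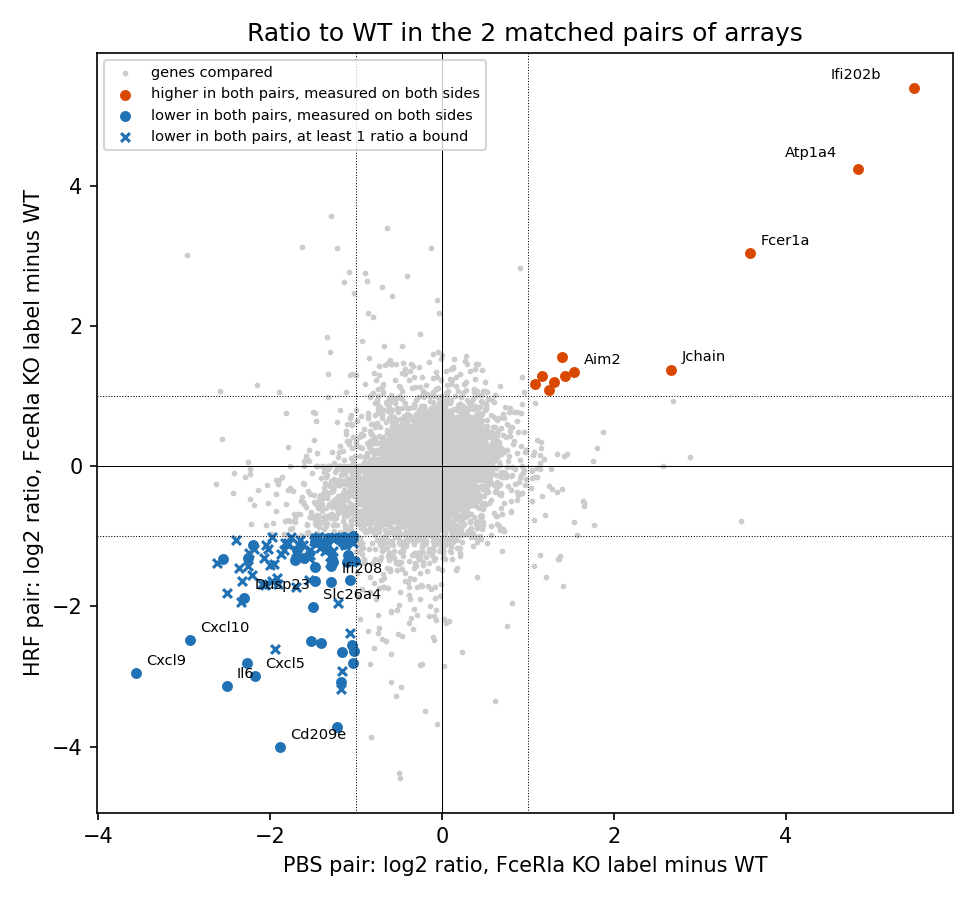
Log2 ratio of the array labelled FceRIa KO to the WT array in the PBS pair (x axis) and the mHRF pair (y axis, HRF in the plot), 1 point per gene compared; dotted lines mark 2-fold, circles are members measured on both sides and crosses are members with at least 1 bound. Ifi202b, Atp1a4 and Fcer1a lie apart at the upper right, and Cxcl9, Cxcl10, Il6, Cxcl5 and Cd209e at the lower left.

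The positions of the arrays are given as a description, since the rule itself sets most of the members' position against WT. Both arrays labelled FceRIa KO lay above both WT arrays for 17.2% of all genes compared and below both for 24.7%; they lay above all 4 other arrays for 5.91% and below all 4 for 11.9%. The rule did not use the arrays labelled FcRg KO. All 11 higher genes lay above the other 4 arrays. Of the 103 lower genes, 90 lay below both WT arrays and 73 below all 4. Of the 23 bright lower genes, 11 lay below both WT arrays and 7 below all 4. For 71 of the 103 lower genes, both WT arrays lay above all 4 other arrays, so the arrays labelled FcRg KO were below WT there as well.

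No group has a replicate, so the residual of a fit to these arrays is the genotype by challenge interaction. A fit over all 6 arrays with limma, with genotype and challenge as additive terms, left 2 residual degrees of freedom. It called 0 of 17596 genes (0%) at a Benjamini-Hochberg adjusted p under 0.05 in either direction, with 608 higher and 1653 lower at an unadjusted p under 0.05. The lowest adjusted p was 0.0746. The adjusted p of the 114 members ran from 0.0746 to 0.700, and 98 of them had an unadjusted p under 0.05. The fit uses the contrast that chose the members, so it does not stand as separate support for them. Olfr270, Ifi202b and Olfr979 had the smallest p. Olfr270 and Olfr979 are not members, and each was well above background on only 2 of the 6 arrays. Their ratios with bounds were -0.63 and -0.53 for Olfr270 and -0.94 and -0.54 for Olfr979, while limma used the signal without bounds.

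The 6 higher genes of chromosome 1 all lay within 10 Mb of Fcer1a and held the 3 highest ratios of the comparison. Ifi202b, a HIN-200 protein that binds DNA, stood at -5.37 and -4.78 on the WT arrays, was not well above background under the FcRg KO label (-6.32 and -6.31), and stood at 0.11 and 0.62 under the FceRIa KO label. That is 44.7-fold and 42.1-fold higher than WT, and its other probe gave ratios of 6.09 and 6.83. Atp1a4, the sodium pump alpha subunit known from sperm, stood at -5.50 and -5.21 on the WT arrays, -4.43 and -4.93 under the FcRg KO label, and -0.66 and -0.97 under the FceRIa KO label. The 4 lower values did not overlap the 2 higher ones, and the folds were 28.5 and 18.8, with 5.54 and 4.70 as the ratios of its other probe. In limma the averaged log2 differences were 5.44 for Ifi202b (SE 0.18), 4.53 for Atp1a4 (SE 0.23) and 3.31 for Fcer1a (SE 0.19), each with an adjusted p of 0.0746.

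Aim2 and Kcnj10, also among the higher genes there, had smaller ratios. Aim2, a sensor of cytosolic DNA that forms an inflammasome, stood at -3.64 and -3.62 on the WT arrays, -4.06 and -4.05 under the FcRg KO label, and -2.11 and -2.28 under the FceRIa KO label. Kcnj10, an inwardly rectifying potassium channel, stood at -3.84 and -4.07, then -3.85 and -3.85, then -2.42 and -2.78 in the same order. For each, both arrays labelled FceRIa KO were above the other 4, with ratios of 1.53 and 1.34 for Aim2 and 1.42 and 1.29 for Kcnj10. With normexp background correction and quantile normalization their mean ratios were 1.09 and 1.04, and neither was 2-fold off in both pairs.

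Among the 4 lower genes near Fcer1a, Dusp23 and Ifi208 differed from all 4 other arrays by nearly the same amount after either challenge. Dusp23, a small dual-specificity phosphatase, stood at 0.89 and 0.86 on the WT arrays, 1.0 and 0.97 under the FcRg KO label, and -1.41 and -1.01 under the FceRIa KO label, 4.94-fold and 3.67-fold lower than WT. Ifi208, a HIN-200 gene, stood at 2.98 and 3.25, then 3.18 and 3.22, then 1.69 and 1.60 in the same order. Its ratios were -1.29 and -1.65, and its 3 other probes all lay further down, with ratios from -2.31 to -3.29. Ifi211, also of the HIN-200 family, was lower mostly after mHRF: it stood at 0.39 and 2.68 on WT arrays, 0.37 and 0.78 under the FcRg KO label, and -0.64 and 0.05 under the FceRIa KO label. Gm4847 was dim, 3.54-fold lower in the PBS pair and at least 2.13-fold lower in the mHRF pair. With normexp and quantile normalization, Ifi211 and Gm4847 were no longer off in both pairs.

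The HIN-200 genes did not move one way. Of 7 compared, Ifi202b and Aim2 were higher, Ifi208 and Ifi211 were lower, and Ifi204, Ifi209 and Ifi214 were not 2-fold off in both pairs. Ifi214 had ratios of 0.75 and 0.60, Ifi204 of -0.12 and -1.27, and Ifi209 of 0.15 and -0.33. Mndal, a gene of the same cluster that was not on the list, had -0.29 and -0.44. The members of this family are close copies of each other, so a probe's signal may include RNA of a neighbouring copy, and the 4 probes of Ifi208 differ in size of ratio though not in direction.

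**Figure D2:**
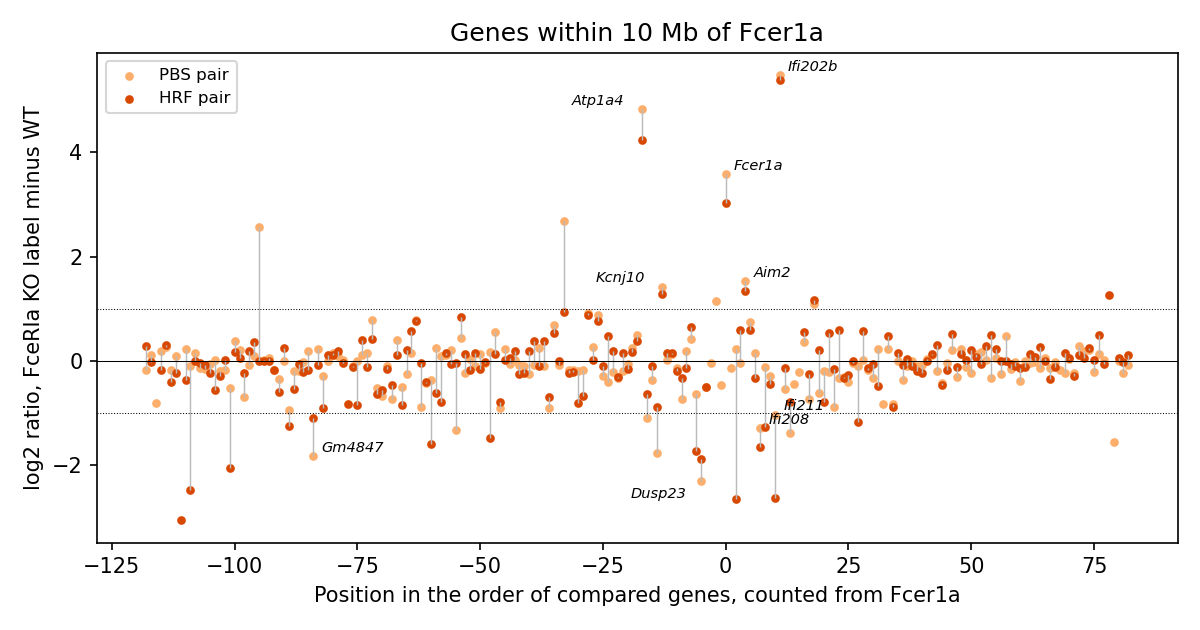
Log2 ratio to WT (y axis) in the PBS pair and the mHRF pair for the compared genes within 10 Mb of Fcer1a, in their chromosomal order counted from Fcer1a (x axis); grey lines join the ratios of 1 gene and dotted lines mark 2-fold. The members named in the plot lie on both sides of Fcer1a, most of them within 20 genes of it, and most other genes lie close to 0.

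Within 10 Mb of Fcer1a, 201 genes were compared and 10 (4.98%) were off WT the same way in both pairs, 6 higher and 4 lower. Elsewhere, 104 of 17333 (0.600%) were, 5 higher and 99 lower. Among bright genes the shares were 6 of 155 (3.87%) near Fcer1a and 24 of 12915 (0.186%) elsewhere. At a 1.5-fold threshold, 23 genes near Fcer1a were off, 11 higher and 12 lower (11.4%). The members were interspersed with genes close to WT: Pigm and Slamf9, between Kcnj10 and Dusp23, had ratios of 0.02 and 0.15 and of 0.14 and 0.16. None of the 11 genes compared of the SLAM family and its adaptors, several of which lie in this stretch, was 2-fold off WT the same way in both pairs. At 1.5-fold, Slamf1 (0.92 and 0.88) and Slamf6 (0.87 and 0.77) were higher and Slamf8 (-0.63 and -1.73) lower. The median ratio of the 11 was -0.19. Of 10 genes listed because their level is known to differ between inbred mouse strains, 1 was higher (Ifi202b) and none lower. This depended on the processing. With normexp and quantile normalization 1 of the 10, Ide, was lower in both pairs, and 1 was lower in the deposited log2 values. With probes averaged, Apoa2 of the same list was lower.

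By chromosome, the share off WT was highest on chromosome 1, with 15 of 1019 genes (1.47%), followed by chromosome 15 with 9 of 692 (1.30%) and chromosome 12 with 6 of 562 (1.07%). Among bright genes the order was chromosome 1 (0.946%), chromosome 5 (0.724%) and chromosome 12 (0.676%), and no bright gene of chromosome 15 was off. All 9 members on chromosome 15 were thus dim. Outside chromosome 1, members came within 5 Mb of at least 2 others on chromosomes 2, 5, 7, 8, 11 and 15. These groups held genes of shared families, in part with unrelated genes among them. On chromosome 5 they were Cxcl1, Cxcl5, Cxcl9 and Cxcl10 with the higher Jchain and the dim AA792892. Saa1, Saa2 and Saa3 lay on chromosome 7, and Ccl2, Ccl7 and Ccl8 with the dim Ccl1 and Heatr9 on chromosome 11. The other groups were dim except for Prg2. They were Defa-ps1, Defa20 and Defa31 on chromosome 8, and Hoxc10, Hoxc12, Olfr281, Olfr282 and Olfr283 on chromosome 15. On chromosome 2 they were Olfr998, Olfr1052 and Olfr1110 with the higher Olfr141 and Prg2. With probes averaged, Defa20 (mean ratio -0.32), Olfr281 (-0.78), Olfr282 (0) and Olfr1052 (-0.08) were no longer off in both pairs. The other members of the groups on chromosomes 2, 8 and 15 had 1 probe each.

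**Figure D3:**
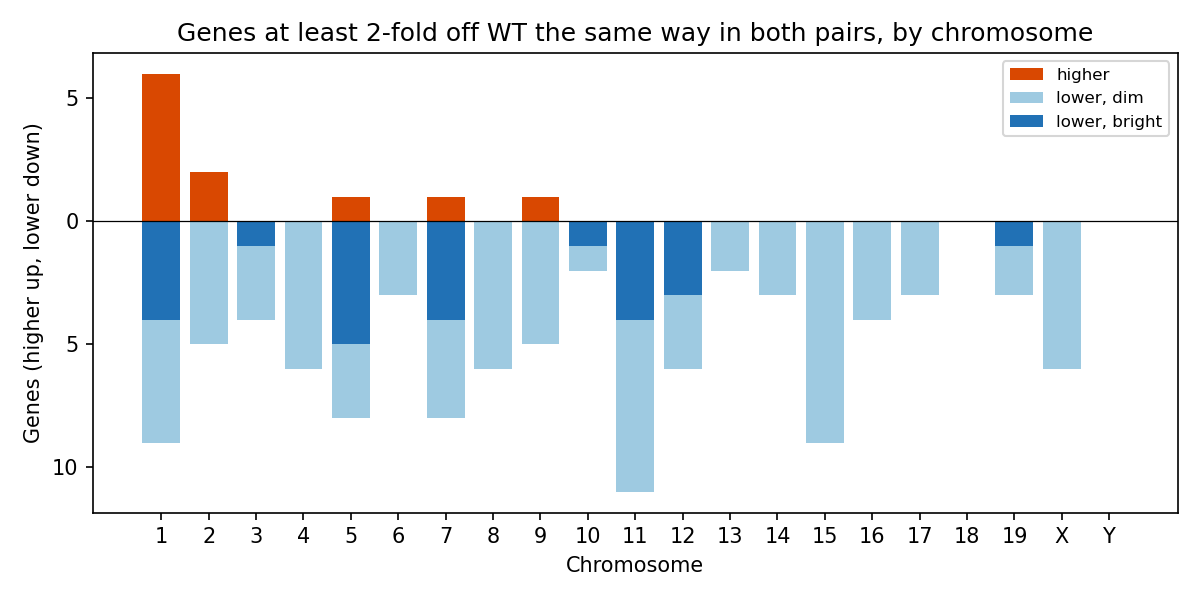
Number of genes at least 2-fold off WT the same way in both pairs on each chromosome (x axis), higher genes drawn up and lower genes down (y axis, counts), with lower genes split into dim and bright. Chromosome 1 holds 6 of the 11 higher genes, and the 11 lower genes of chromosome 11 are the most on any chromosome.

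Away from Fcer1a, 5 genes were higher, of which 3 stood on the lists of plasma cell, eosinophil or neutrophil genes. Jchain, the joining chain of polymeric IgM and IgA, stood at -1.12 and 0.92 on the WT arrays, -6.55 and -6.10 under the FcRg KO label, and 1.54 and 2.30 under the FceRIa KO label, 6.32-fold and 2.60-fold higher than WT. The WT PBS array was thus lower than the WT mHRF array by more than the mHRF pair differed. Of the 9 plasma cell genes compared, Jchain was the only one off in both pairs, and their median ratio was 0.04. Mzb1 had ratios of 0.35 and 0.52, and the B cell list of 12 genes had a median of 0.01.

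Prg2, the major basic protein of eosinophil granules, stood at -0.56 and -0.28 on the WT arrays, -1.20 and 0.36 under the FcRg KO label, and 0.68 and 0.81 under the FceRIa KO label. Among the 10 eosinophil genes compared it was the only member, and the median ratio was -0.02 (0.13 when scaled on the array median). By pair that median was 0.42 (PBS) and -0.35 (mHRF), while Epx, eosinophil peroxidase, had ratios of 0.92 and 0.75. Ngp, a granule protein of maturing neutrophils, stood at -0.09 and 0.08, then -0.97 and 0.28, then 1.07 and 1.37 in the same order. It was the only member among 13 neutrophil genes, but their median ratio was 0.60, with 0.88 in the PBS pair and 0.48 in the mHRF pair. Granule genes of the same list had ratios of 1.08 and 0.90 (Ctsg), 0.79 and 0.83 (Camp) and 0.60 and 0.91 (Mpo). Cxcr2 (1.36 and -1.32) and Il1r2 (1.35 and -1.32), also on that list, were higher in the PBS pair but lower in the mHRF pair. In whole lung, more cells of a type and more RNA per cell cannot be told apart.

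Cd163l1, a scavenger receptor of gamma delta T cells, stood at -1.94 and -1.81 on WT arrays, -1.30 and -1.82 under the FcRg KO label, and -0.55 and -0.25 under the FceRIa KO label. Its ratios were 1.39 and 1.56, while the 14 T cell genes compared held no member and had a median ratio of -0.23. Olfr141, an olfactory receptor, was dim, at -5.61 and -5.80, then -5.67 and -5.32, then -4.31 and -4.59. Both values were above the other 4, and it was the only 1 of 503 olfactory receptor genes compared that was higher in both pairs. With normexp and quantile normalization its mean ratio was 0.57.

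**Figure D4:**
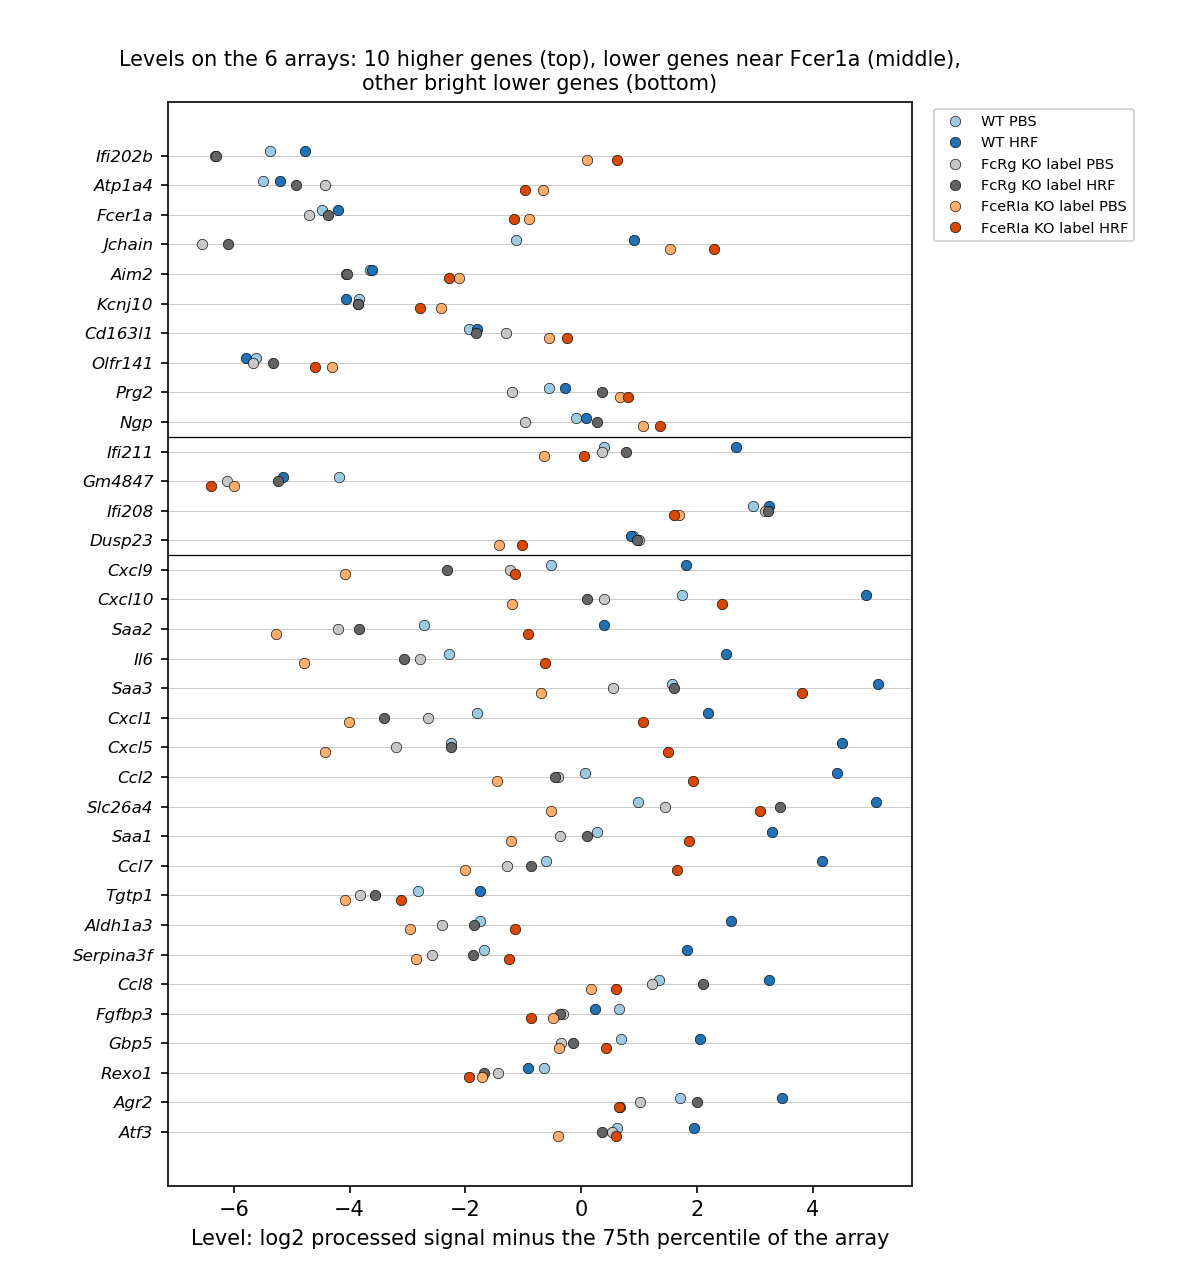
Level on each of the 6 arrays (x axis, log2 processed signal minus the 75th percentile of the array) for 10 of the 11 higher genes (top), the 4 lower genes near Fcer1a (middle) and the 20 other bright lower genes (bottom); 1 point is 1 array, and HRF stands for mHRF. In the top block both arrays labelled FceRIa KO lie to the right of the other 4, and in the bottom block the WT mHRF array lies furthest right for 18 of 20 genes.

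The bright lower genes away from Fcer1a were 20, and most encode chemokines, acute phase proteins and proteins induced by interferon gamma. The array labelled FceRIa KO after PBS was the lowest of the 6 for 17 of the 20, and the WT array after mHRF the highest for 18. On the array labelled FceRIa KO after mHRF, 15 of the 20 lay between the mHRF array labelled FcRg KO and the WT mHRF array, and 5 lay below both. For 12 of the 20, the arrays labelled FceRIa KO overlapped the WT arrays when challenges were not matched. The median ratio was -1.45 in the PBS pair and -2.24 in the mHRF pair.

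Of 13 neutrophil and monocyte chemokines compared, 4 were lower in both pairs and none higher, with a median ratio of -0.59. Cxcl5, a ligand of the neutrophil receptor CXCR2, stood at -2.26 and 4.50 on the WT arrays, -3.20 and -2.25 under the FcRg KO label, and -4.43 and 1.5 under the FceRIa KO label. The ratios were -2.18 and -3.0, while the PBS and mHRF arrays differed by over 5 log2 units in WT and under the FceRIa KO label. Cxcl1, a ligand of the same receptor, stood at -1.81 and 2.19, then -2.64 and -3.40, then -4.00 and 1.06. The closely related Cxcl2 and Cxcl3 were lower in the PBS pair but not in the mHRF pair, with ratios of -2.56 and 0.39 and of -1.82 and 0.75.

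Ccl2 and Ccl7, ligands of the monocyte receptor CCR2, were also lower in both pairs. Ccl2 stood at 0.07 and 4.42 on the WT arrays, -0.40 and -0.46 under the FcRg KO label, and -1.46 and 1.93 under the FceRIa KO label. Ccl7 stood at -0.60 and 4.17, then -1.28 and -0.87, then -2.01 and 1.65, so that in both genes the mHRF array labelled FceRIa KO lay between the other mHRF arrays. Ccl12, a further ligand, had ratios of -0.34 and -0.84 and did not pass. Ccl1, a ligand of CCR8, was at least 3.84-fold lower in the PBS pair and 6.12-fold lower in the mHRF pair.

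Il6, a cytokine that drives the acute phase response, stood at -2.29 and 2.51 on the WT arrays, -2.78 and -3.06 under the FcRg KO label, and -4.79 and -0.63 under the FceRIa KO label. It was 5.69-fold and 8.82-fold lower than WT, and the only member among 14 inflammatory cytokines, whose median ratio was -0.50. Il1b and Tnf did not pass, with ratios of 0.72 and -0.93 and of -0.72 and -0.03. Of 15 acute phase and antimicrobial genes, the 3 serum amyloid A genes were lower and none was higher (median -0.29). Saa3, made locally in inflamed tissue, stood at 1.56 and 5.13 on the WT arrays, 0.55 and 1.60 under the FcRg KO label, and -0.69 and 3.82 under the FceRIa KO label. Saa1 had ratios of -1.48 and -1.44 and Saa2 of -2.55 and -1.32, and their probes may share signal since the copies are nearly identical. Lcn2 and Hp of the same list were close to or above WT after mHRF, at 0.57 and 0.53.

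Of 13 chemokines and GTPases induced by interferon gamma, 3 were lower and none higher, with a median ratio of -0.85. Cxcl9, a ligand of the T cell receptor CXCR3, stood at -0.52 and 1.81 on the WT arrays, -1.24 and -2.32 under the FcRg KO label, and -4.08 and -1.15 under the FceRIa KO label. It was 11.8-fold and 7.73-fold lower, and its other probe gave ratios of -2.78 and -2.71. Cxcl10, which binds the same receptor, stood at 1.74 and 4.92, then 0.39 and 0.10, then -1.19 and 2.44 in the same order, 7.65-fold and 5.58-fold lower than WT. Gbp5, a guanylate-binding protein, stood at 0.68 and 2.05, then -0.35 and -0.14, then -0.39 and 0.42. Cxcl9 was lower than on every WT array in both challenges, whereas Cxcl10 after mHRF was above WT after PBS.

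Tgtp1, an interferon-inducible GTPase outside the rule for named genes and picked after its values were seen, had ratios of -1.27 and -1.37, and its near-identical copy Tgtp2 may share its signal. Ubd, a ubiquitin-like protein induced by interferon gamma and named by the rule, stood at -3.30 and -1.30 on WT arrays, -4.95 and -5.03 under the FcRg KO label, and -5.57 and -4.10 under the FceRIa KO label. Ubd was dim, and with normexp and quantile normalization it was no longer off in both pairs. The 18 type I interferon-stimulated genes compared held no member; their median ratio was 0.00, and 0.14 when scaled on the array median.

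Of 20 type 2 cytokines and effectors compared, Ccl8 and Il25 were lower in both pairs and none was higher, while the median ratio was -0.35 in the PBS pair and -1.53 in the mHRF pair. Ccl8, a chemokine of monocytes and eosinophils, stood at 1.35 and 3.25 on the WT arrays, 1.23 and 2.11 under the FcRg KO label, and 0.18 and 0.60 under the FceRIa KO label. Il25, a cytokine of epithelial tuft cells, was dim and at least 2.91-fold and 2.41-fold lower. Agr2, which folds mucins in goblet cells, stood at 1.70 and 3.47, then 1.01 and 2.0, then 0.67 and 0.66, and was the only member among 13 club and goblet cell genes (median -0.53). Slc26a4, the anion exchanger pendrin, stood at 0.99 and 5.10, then 1.45 and 3.44, then -0.52 and 3.08, 2.84-fold and 4.03-fold lower than WT.

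Cd209e, a lectin of the DC-SIGN family, had the lowest mHRF ratio among the members: it stood at -4.22 and 0.86 on WT arrays, -3.98 and -1.92 under the FcRg KO label, and -6.11 and -3.15 under the FceRIa KO label. Its ratios were -1.89 and -4.01, and their mean was -1.96 with normexp and quantile normalization. Cd209e was dim, and in that setting it was not 2-fold off in both pairs. Atf3, a transcription factor of the stress response, had ratios of -1.02 and -1.35 and was the only member among 15 immediate early genes (median -0.43); it lies on chromosome 1 but not within 10 Mb of Fcer1a. The remaining bright lower genes were picked after their values were seen. Aldh1a3, which makes retinoic acid, had ratios of -1.22 and -3.73, and Serpina3f, a protease inhibitor, -1.17 and -3.08. Fgfbp3 had -1.14 and -1.12. Rexo1 had -1.07 and -1.02, but its other probe gave 0.20 and 0.14, so its probes disagree. With normexp and quantile normalization, Atf3, Tgtp1 and these 4 were no longer off in both pairs.

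The 80 dim lower genes made up 77.7% of the lower genes, against 25.5% dim genes among all genes compared. Their median level was -4.60 on the WT arrays, -5.50 under the FcRg KO label and -6.61 under the FceRIa KO label, so it was below WT on both labels. In 44 of the 80, neither signal was well above background on the arrays labelled FceRIa KO, while all 80 were well above background on both WT arrays. Over all dim genes compared, the median ratio was -0.33 in the PBS pair and -0.11 in the mHRF pair, against 0.01 and 0.00 over bright genes. The lower share of spots well above background on the arrays labelled FceRIa KO moves with this class, and its part was not tested.

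**Figure D5:**
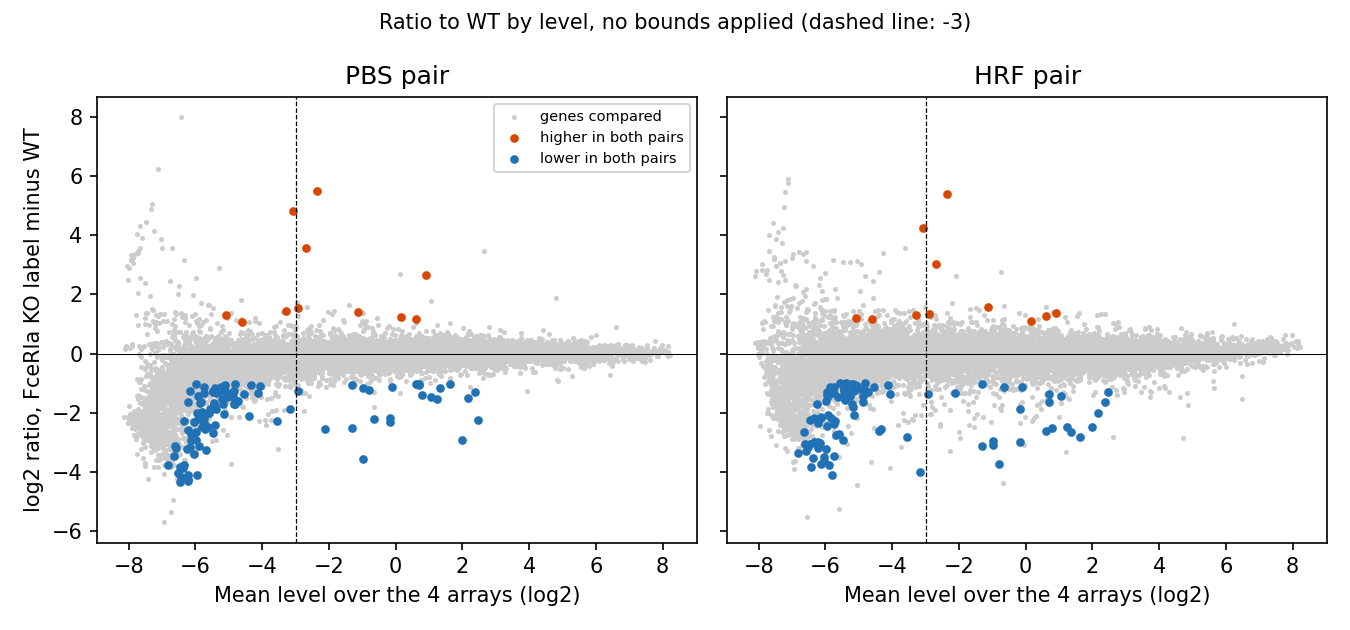
Log2 ratio to WT with no bounds applied (y axis) against the mean level over the 4 arrays compared (x axis) in the PBS pair (left) and the mHRF pair (right, HRF in the plot); the dashed line at -3 parts dim from bright genes. Most lower members lie left of the line, where all genes compared spread downwards too, and the 7 bright higher members lie right of it.

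Of 503 olfactory receptor genes compared, 13 were lower, every one with a bound. For comparison, 80 of the 4464 dim genes compared were lower, and 0.587% of all genes compared. The levels of the 13 ran from -5.23 to -4.01 on WT arrays and from -8.69 to -6.01 on arrays labelled FceRIa KO. Among the other genes with bounds, Hoxc10 was at least 5.65-fold and 3.50-fold lower, Dlx6 at least 5.04-fold and 3.83-fold, and Pou3f2 at least 4.18-fold and 3.26-fold. The gene 4932411N23Rik was 3.24-fold lower in the PBS pair and at least 3.29-fold lower in the mHRF pair. Measured on both sides, Mybph, a myosin-binding protein of muscle, had ratios of -1.71 and -1.34, Gzmc, a granzyme of cytotoxic lymphocytes, -1.60 and -1.32, and Iqcf4 -1.47 and -1.63. With normexp and quantile normalization the mean ratios of these 3 were -0.51, -0.50 and -0.52, and averaging probes put Iqcf4 at -0.24. None of the 80 dim lower genes was then among the 16 lower genes that remained.

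A few dim lower genes, picked after their values were seen, were lower mainly after mHRF. Ctla4, an inhibitory receptor of T cells, stood at -5.25 and -2.92 on WT arrays, -5.81 and -4.78 under the FcRg KO label, and -7.92 and -5.85 under the FceRIa KO label. Retnlb, a goblet cell protein, stood at -5.24 and -3.05, then -6.51 and -3.93, then -7.73 and -7.16 in the same order, at least 9.09-fold lower in the mHRF pair. Tff1, a trefoil peptide of mucus, was at least 2.10-fold and 5.19-fold lower, and its other probe was also off the same way.

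The threshold parts genes of nearly equal ratio. Just inside lay Dmbt1 (-1.04 and -1.0) among the lower and Prg2 (1.24 and 1.09) among the higher genes named. Just outside lay Col6a6 (-0.998 and -1.23) and Eln, the gene of elastin (0.95 and 1.06). Itln1, an intelectin of goblet cells that lies near Fcer1a, missed the rule in 1 pair only, at 2.69 and 0.93. Over all members, 15 had 17 other probes that entered the comparison, of which 14 had the same sign and 7 were off WT the same way in both pairs. The 17 are not all the other probes on the array. Further members, among them Defa20, Olfr282, Olfr1052, Iqcf4 and Anks1b, also carry more than 1 probe, but none of their other probes is among the 17.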

How the data were processed

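Spots were quantified with Agilent Feature Extraction 10.7.3.1 and the deposited processed signal is a background-subtracted, detrended intensity, per the file headers. A deposited table with log2 values of the same arrays, of unknown centring, served as an alternative. All 6 arrays lie on 1 slide and 1 scan, per the file headers. Levels, bounds and bright genes are defined in the results. Control and outlier spots were left out, spots of a probe were averaged, and 26056 of 55681 probes were named through RefSeq accessions. The gene table was that of GRCm38.p6, and its coordinates set the distances from Fcer1a, the gene order and the groups of nearby members. Where a gene had more than 1 probe (5270 genes), the brightest on average was taken. A gene entered the comparison if 1 or more of the 4 arrays measured it well above background; 2 genes with an outlier spot were left out. limma 3.58.1 (R 4.3.3) was fitted on 6 arrays. Its p-values rest on the genotype by challenge interaction in these arrays, not on the spread between like arrays. The fit was also run on simulated data with the same spread for every gene.

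Genes were named by rule: Fc receptor genes and Tpt1, members within 10 Mb of Fcer1a, the 15 extreme measured ratios and 5 bounds each way, the 3 smallest limma p, up to 4 members of each of 40 gene lists, and members within 5 Mb of at least 2 others. Members, lists and rules were chosen with earlier results of these data known. Of the 40 lists, 13 held members and are given; the other 27 held none. Of the higher genes, 1 enters the counts but is not reported here. Alternatives were normexp with offset 50 and quantile normalization, the value table, median scaling, filters, probe averaging, fold, single pairs and left-out arrays.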

Additional observations from a re-analysis of the deposited data

Results flagged for a closer look

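In 7 genes the ratio to WT was at least 2-fold higher in the PBS pair and at least 2-fold lower in the mHRF pair, and in 17 genes the reverse held; with 1 array per group the difference between the pairs was not tested. The 7 included Cxcr2 and Il1r2, receptors of neutrophils, with ratios of 1.36 and -1.32 and of 1.35 and -1.32. The 17 included 5 major urinary protein genes, of which Mup20 had ratios of -1.29 and 3.57, and Ucp1 of brown fat, with -1.31 and 1.62. Ucp1 also differed within other labels, at 3.83 after PBS and -2.61 after mHRF on the arrays labelled FcRg KO, and the 15 fat genes compared had a median ratio of -0.29 in the PBS pair and 0.71 in the mHRF pair.

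Probes with no RefSeq name here also carried signal off WT. Of 10315 such probes other than interval probes, 26 were higher and 124 lower in both pairs, and 5 of the 124 were bright. Over all named genes compared, 0.0627% were higher and 0.587% lower. Of the 26 higher probes, 14 were not well above background on either array labelled FcRg KO. The probe A_55_P2035117 had ratios of 5.10 and 3.93, and A_55_P1972582 of -3.39 and -3.66. Of 11656 probes for intervals between genes, 2 were higher and 173 lower. Of the 173, 137 had a bound and only 2 were bright. The 2 higher ones lie at chr10:66383049-66386347 (forward strand) and chr10:66349796-66378261 (reverse strand) of the design's assembly mm9, with ratios of 1.81 and 1.93 for the first and of at least 1.79 and 3.54 for the second, which was not well above background on the WT arrays.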

How the results depend on the processing

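The 11 higher and 103 lower genes depended on the background correction and on the bounds. With normexp and quantile normalization 7 were higher, all 7 of them among the 11 (Fcer1a, Ifi202b, Atp1a4, Jchain, Cd163l1, Ngp and Prg2), and 19 were lower, of which 16 were among the 103. The value table gave 24 and 630 and no filter 25 and 754, in both cases with no bounds applied. Median scaling, with bounds, gave 14 and 68. Requiring all 4 arrays well above background gave 11 and 44, and averaging probes kept 81 of the 103. At 1.5-fold 33 and 431 were off, and at 3-fold 3 and 17. The PBS pair alone gave 89 and 501, the mHRF pair alone 169 and 386, and bright genes alone 7 and 23. The higher genes were 9.65% of calls, and 26.9% with normexp, 17.1% with median scaling, 20% with all 4 arrays well above background, 3.67% in the value table and 3.21% with no filter. None of these counts and none of the named genes changed direction, but median scaling turned the sign of some list medians, among them those of the Fc receptor, mast cell and eosinophil lists. limma called 2 higher genes with normexp (Ifi202b and Atp1a4) and 3 higher (with Fcer1a) and 22 lower with median scaling, which moves the median ratio of all genes from -0.03 to 0.11; the lowest adjusted p was 0.00635 and 0.0390. It called 0 higher and 0 lower in every other setting run, including each array left out in turn (0 to 0). The share off near Fcer1a was 11.4% at 1.5-fold, 7.76% within 5 Mb and 3.41% within 20 Mb. The causes were not tested. Challenge is a term of the limma fit; no replicate block could be added, since each group has 1 array. With 6 arrays and no replicates, their number limits the precision, and signal over background limits many dim genes to bounds.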
